A study of Mus musculus with 20 samples.

Results

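The members described here are 150 array probes whose footpad signal in WT mice was at least 2-fold lower at P5 than both at P1 and in the adult. They were chosen from 42006 probes in the Cy3 channel, which carried the footpad RNA, after the log2 signal of each array had been centred on the array median. A probe had to be well above background on both WT P1 and both WT adult arrays, and its adult level had to differ by less than 0.5 (log2) between Tabby and WT. The background condition left 26272 probes, the fall at P5 against P1 left 730, the condition on the adult left 358 and the closeness of the genotypes left 219. The 150 with the largest rule value were taken, the rule value being the smaller of the 2 distances, WT P1 minus WT P5 and WT adult minus WT P5. The WT P1, WT P5 and adult values thus chose the members and are given below as a description, with no test. Tests were made on the Tabby P1, P3 and P5 arrays, the P3 arrays of WT and the E17.5 arrays of both genotypes, which the rule did not use.

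Footpad skin of Tabby and WT mice, both labelled as strain C57BL6/J, was profiled late in gestation (E17.5), on postnatal days 1, 3 and 5 (named P1, P3 and P5 below) and in the adult on day 56. There were 20 two-colour Agilent arrays, 2 for each genotype at each stage, labelled as biological replicates. Per the labels, Cy5 carried the same reference on every array, RNA pooled from mouse cell lines and mixed with RNA of embryonic stem cells. The labels give neither the sex of the animals nor whether a sample pooled several. Each stage was on 1 slide that held its 2 Tabby and 2 WT arrays, so slide and stage cannot be told apart in any comparison between stages, and the Tabby arrays tested here shared their slides with the WT arrays that chose the members. The slides of P1, P3 and P5 were scanned on the same day, and those of E17.5 and the adult each on another day.

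Tabby mice carry a mutation of Eda, which encodes ectodysplasin A, a ligand of the tumour necrosis factor family that skin epithelium needs to form hair follicles of some types, teeth and sweat glands. In the mouse, eccrine sweat glands lie in the footpads, and Tabby footpads lack them. In normal footpads the gland germs grow down from the epidermis around birth, and the secretory coil matures over the following weeks while the skin around it keeps growing and the epidermis keratinises. The members were chosen to be alike in both genotypes in the adult.

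The files name the probes only by clone identifiers: 0 of the 42006 carried another name. No gene name or function is therefore given for any member, and the tissue could not be checked against marker genes. Each probe is a 60-base oligonucleotide, and 150 distinct sequences stood for the 150 members. The sequences of the 8 members with the largest rule value are shown first, since they show the pattern of the rule most strongly. They are written 5′ to 3′ as deposited. Capitals mark AATAAA, the signal near which most mouse transcripts are cleaved and given their poly(A) tail, or its common variant ATTAAA.
Z00037804-1: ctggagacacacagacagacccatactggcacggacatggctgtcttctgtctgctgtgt
Z00074008-1: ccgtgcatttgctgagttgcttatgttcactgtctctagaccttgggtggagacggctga
Z00014891-1: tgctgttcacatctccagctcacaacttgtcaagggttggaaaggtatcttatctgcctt
Z00025832-1: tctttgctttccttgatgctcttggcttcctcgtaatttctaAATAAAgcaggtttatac
Z00016309-1: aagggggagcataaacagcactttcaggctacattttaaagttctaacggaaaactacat
Z00076759-1: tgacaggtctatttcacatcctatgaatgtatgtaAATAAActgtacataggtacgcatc
Z00012264-1: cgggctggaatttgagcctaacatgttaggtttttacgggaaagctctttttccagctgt
Z00034989-1: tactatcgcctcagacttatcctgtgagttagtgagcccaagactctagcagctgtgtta
Of these 8 probes, Z00025832-1 and Z00076759-1 held AATAAA. A search of the printed strand found AATAAA in 13 of the 150 members (8.67%), against 7.78% of the 26272 probes eligible by background and 6.93% of all probes. ATTAAA stood in 4 members. Either motif was present in 17 members (11.3%), against 10.9% of the eligible probes, so the members were close to the rest of the array in this respect. The median GC content was 45.0% both in the members and in the eligible probes.

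Some members read the same transcript sequence. A stretch of at least 30 bases was shared by 5 members in 2 groups, so that the 150 probes held 147 independent sequences. The members of both groups are printed because their agreement shows how far 1 target gave the same course through different probes.
Z00022747-1: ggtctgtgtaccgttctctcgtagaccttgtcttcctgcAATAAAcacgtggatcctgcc
Z00076845-1: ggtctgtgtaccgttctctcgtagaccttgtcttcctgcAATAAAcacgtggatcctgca
Z00074548-1: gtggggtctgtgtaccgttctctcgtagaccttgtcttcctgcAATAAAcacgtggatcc
Z00072942-1: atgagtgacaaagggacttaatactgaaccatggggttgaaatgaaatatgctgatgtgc
Z00073760-1: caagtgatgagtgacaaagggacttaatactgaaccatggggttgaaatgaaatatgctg
Z00022747-1 and Z00076845-1 differed by C60A, counted from 1 at the 5′ end with the base of Z00022747-1 first, and Z00074548-1 shared 56 bases with both. Z00072942-1 and Z00073760-1 overlapped by 54 bases. Among the RefSeq windows around gene starts (GRCm38.p6), 2 members had a match of at least 30 bases. Z00025240-1 lay whole, on the same strand, in the window of Tmem95 (chromosome 11, 69878006 to 69878305), and Z00008045-1 shared 51 bases, on the opposite strand, with that of Gm41401 (chromosome 15, 100815583 to 100815882). A match to such a window does not name the transcript that a probe reads.

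The rule value ran from 1.16 to 4.06 with a median of 1.39, all in log2. The last members inside the list were Z00033881-1 at 1.17, Z00015955-1 at 1.17 and Z00012335-1 at 1.16, and the first probes outside it were Z00038303-1 at 1.16, Z00015119-1 at 1.16 and Z00030285-1 at 1.15. The list thus ends at no step in the values. The members spanned a wide range of brightness: their mean Cy3 level at WT P1 ran from -2.39 to 11.77, as log2 over the array median.

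The Cy3 level of the members, as a median over the 150, was -0.14 (E17.5), 0.72 (P1), -0.34 (P3), -0.39 (P5) and 1.77 (adult) in Tabby footpads, against -0.17, 0.87, -0.40, -0.71 and 1.72 at the same stages in WT footpads. By array, the medians were -0.23 and -0.43 on the Tabby P5 arrays, against 0.71 and 0.77 on the Tabby P1 arrays, and -0.75 and -0.75 on the WT P5 arrays, against 0.59 and 1.05 on the WT P1 arrays, so the WT P1 arrays lay furthest apart of these 4 groups. In the reference channel the medians of all 20 arrays lay between -0.34 and 0.27. They too were lower at P3 and P5 than at P1 and in the adult. They ran from 0.15 to 0.27 at P1, -0.34 to -0.22 at P3, -0.32 to -0.17 at P5 and 0.03 to 0.14 in the adult. The P3 arrays, which the rule did not read, bear on the label of a dip at P3 and P5. In Tabby the level at P3 was nearer to that at P5 than to that at P1 in 139 members, against 64.5% of the eligible probes. In WT this held for 136 members, against 68.3%, which is a description only, since the WT P1 and P5 values had chosen the members. The lowest of the 5 stages was P5 for 57 members in Tabby and for 86 in WT, P3 for 56 in Tabby and 36 in WT, and E17.5 for 37 in Tabby and 28 in WT. The highest stage was the adult for 101 members in Tabby and 100 in WT, P1 for 30 in Tabby and 33 in WT, and E17.5 for 19 in Tabby and 17 in WT. In these counts of lowest and highest stages, the WT values and the Tabby adult values are a description, since the rule had read them.

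The same fall was present in Tabby footpads, on arrays that had no part in choosing the members. In the Cy3 channel all 150 members had a lower mean on the Tabby P5 than on the Tabby P1 arrays, with a median difference of -1.09 and a range of -3.70 to -0.04 (log2), where the median over the 26272 eligible probes was 0.03. The fall was at least 2-fold in 83 members, against 1.88% of the eligible probes. Both Tabby P5 arrays lay below both Tabby P1 arrays in 136 members, against 26.6% of the eligible probes. In bulk skin, fewer cells of a type and less RNA per cell cannot be told apart.

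On the log2 ratio to the reference of the same array the measured fall was smaller, by an amount that depended on the processing. The log2 ratio of footpad over reference was fitted for 32121 probes with limma, with the Benjamini-Hochberg adjusted p taken over all of them and a threshold of 0.05. In Tabby P5 minus Tabby P1, 73 of the 150 members (48.7%) were called lower and 0 higher, against 5.7% of all probes called lower and 7.44% higher. The median difference of the members was -0.53, against 0.01 over all probes, and 149 of the 150 were negative. With the Cy3 channel tested alone, 104 members were called lower, against 6.29% of all probes, and 0 higher, against 8.65%. Taken as Cy3 minus Cy5 of Agilent's own processed signals, made with spatial detrending and dye normalization per the file headers, the median of the members was -0.94. This lay nearer to the Cy3 median, -1.09, than to the -0.53 of the fitted ratio. With 2 arrays a group, 1 array weighed heavily: 40 members were called without Tabby P5 replicate 2, 44 without Tabby P5 replicate 1 and 42 without Tabby P1 replicate 2.

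The size of the fall in Tabby followed the rank by which WT had chosen the members. Over ranks 1 to 50 the median Tabby P5 minus Tabby P1 difference in Cy3 was -1.49, over ranks 51 to 100 it was -1.01 and over ranks 101 to 150 it was -0.83. At least 2-fold falls numbered 41, 26 and 16 in these ranks, and calls on the log2 ratio 26, 23 and 24. The calls therefore did not thin out toward the end of the list, while the size did. Both folds that the rule asked of WT, P1 over P5 and adult over P5, were also reached by the Tabby means in 72 members, against 0.902% of the eligible probes. The adult arm by itself was reached in 117 members, against 3378 of the 26272 eligible probes. The median Tabby adult minus Tabby P5 difference of the members was 1.65 in Cy3, against 2.06 for WT adult minus WT P5. These adult values are a description, since the rule had set the adult level of Tabby close to that of WT. The same holds for the adult fold in the count of 72 members.

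Z00012264-1 had the largest fall of the log2 ratio in Tabby among the members called. Its Cy3 level was 2.89 and 2.45 on the Tabby P5 arrays, against 5.02 and 5.37 on the Tabby P1 arrays. Its Cy5 level was 4.92 and 4.86 on the Tabby P5 arrays, against 4.91 and 4.96 on the Tabby P1 arrays. The footpad arrays of both stages were clearly apart and the reference stayed within 0.1 (log2). The log2 ratio differed by -2.36 ± 0.18 (SE, limma, adjusted p = 4.61e-06). In WT the Cy3 level was 2.47 and 2.70 at P5, against 5.80 and 5.78 at P1. It was already high before birth, with 4.94 and 5.05 in Tabby, against 5.07 and 4.99 in WT at E17.5, and the adult level was 5.74 and 5.05 in Tabby, against 5.26 and 5.02 in WT. P3 and P5 were thus the low stages of the 5 in both genotypes.

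Z00014891-1 had the next largest fall. In Cy3 it held -0.24 and -0.97 on the Tabby P5 arrays, against 2.26 and 2.46 on the Tabby P1 arrays. The log2 ratio differed by -1.85 ± 0.13 (SE, limma, adjusted p = 2.02e-06). Unlike Z00012264-1 it was low before birth, with -0.58 and -0.65 in Tabby, against -0.03 and -0.62 in WT at E17.5, and stood high at P1 and in the adult only. The adult level was 2.87 and 2.52 in Tabby, against 2.35 and 2.30 in WT.

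Z00016309-1 had the largest fall of the log2 ratio among the members in Tabby P3 minus Tabby P1. Its Cy3 level on the 2 Tabby arrays of each stage was 2.46 and 3.10 at E17.5, 6.64 and 6.17 at P1, 2.90 and 3.05 at P3, 4.39 and 4.76 at P5, and 7.75 and 7.86 in the adult. On the WT arrays it was 2.10 and 2.55 at E17.5, 5.72 and 6.27 at P1, 2.56 and 2.57 at P3, 3.26 and 3.33 at P5, and 7.06 and 7.62 in the adult. The Cy5 level on the 4 arrays of P1 and P5 in Tabby ran from 3.41 to 3.51. Its lowest level after birth was at P3 in both genotypes, and the Tabby P5 arrays lay above the Tabby P3 arrays. The log2 ratio differed by -3.38 ± 0.24 in Tabby P3 minus Tabby P1 (SE, limma, adjusted p = 4.9e-06) and by -1.82 ± 0.24 in Tabby P5 minus Tabby P1 (adjusted p = 0.000389). It was the only member called in Tabby P5 minus Tabby P3, at 1.56 ± 0.24 (SE, limma, adjusted p = 0.0126), where 0.455% of all probes were called higher and 0.112% lower.

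Z00037804-1 had the largest rule value, 4.06. Its level in Cy3 was -1.26 and -2.25 on the Tabby P5 arrays, against 1.15 and 1.16 on the Tabby P1 arrays. The WT arrays that chose it held -3.13 and -1.59 at P5, against 1.40 and 2.00 at P1, and the lower of the WT P5 arrays was not well above background. Its reference was lower too, with Cy5 at -2.83 and -3.18 on the Tabby P5 arrays, against -1.77 and -1.99 on the Tabby P1 arrays. This Cy5 difference, -1.12 ± 0.46, was not called (SE, limma on Cy5, adjusted p = 0.829). The log2 ratio of Tabby differed by -1.39 ± 0.19 (SE, limma, adjusted p = 0.000377). Z00074008-1, next by rule value, had -0.21 and -0.89 on the Tabby P5 arrays, against 1.55 and 2.12 on the Tabby P1 arrays, and 4.28 and 3.98 in the Tabby adult. The adult level was thus above that at P1, by more than the arrays of either stage differed. Its log2 ratio differed by -1.64 ± 0.23 in Tabby P5 minus Tabby P1 (SE, limma, adjusted p = 0.000472).

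Z00076759-1 had 1.52 and 1.38 on the Tabby P5 arrays, against 2.92 and 3.43 on the Tabby P1 arrays, and its log2 ratio differed by -1.57 ± 0.20 (SE, limma, adjusted p = 0.000247). Z00022567-1 had 0.03 and 0.13 on the Tabby P5 arrays, against 2.41 and 2.41 on the Tabby P1 arrays, with a difference in log2 ratio of -1.76 ± 0.20 (SE, limma, adjusted p = 0.000114). Z00030918-1, a bright probe, had 4.68 and 4.30 on the Tabby P5 arrays, against 6.13 and 5.94 on the Tabby P1 arrays. Its difference in log2 ratio, -1.61 ± 0.10 (SE, limma), had the smallest error of the members named for their fall, with an adjusted p of 1.04e-06. In these 3 members the arrays of P5 and P1 did not overlap in Cy3. Z00022567-1 and Z00030918-1 were named among members whose arrays did not overlap in log2 ratio, so for them this is no separate result.

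The fall was already present at P3. In Tabby P3 minus Tabby P1, 73 members were called lower and 0 higher on the log2 ratio (limma), against 6.26% of all probes called lower and 7.97% higher. The median difference was -0.62, and in the Cy3 channel by itself it was -1.10, with 101 members called lower, against 6.69% of all probes, and 0 higher, against 7.72%. This comparison and Tabby P5 minus Tabby P1 share the Tabby P1 arrays, so they are not independent of each other. Between P5 and P3 few members were called. In Tabby P5 minus Tabby P3, 0 members were called lower and 1 higher, with a median difference of 0.06. In the Cy3 channel by itself, 7 members were called higher in Tabby P5 than in Tabby P3, against 0.638% of all probes, and 0 lower, against 0.249%.

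Not every member of the list fell measurably in Tabby. Of the 77 members not called in Tabby P5 minus Tabby P1, Z00030579-1 had the highest difference in log2 ratio, 0.10 ± 0.09 (SE, limma, adjusted p = 0.562). The Cy3 signal stood at -2.02 and -1.56 on the Tabby P5 arrays, against -1.33 and -2.03 on the Tabby P1 arrays, and the arrays of both stages overlapped. The WT arrays had chosen it with -1.72 and -1.54 at P5, against -0.74 and 0.10 at P1, while the adult stood higher in both genotypes, at 1.04 and 1.43 in Tabby, against 1.63 and 1.54 in WT. Z00029489-1 (-0.03 ± 0.10, SE, limma, adjusted p = 0.897) had -1.67 and -1.67 on the Tabby P5 arrays, against -1.26 and -1.78 on the Tabby P1 arrays. Z00034648-1 had 0 of 2 arrays well above background in Tabby P5, WT P3 and WT P5, and 1 of 2 in Tabby P1. Its measured means differed by 1.09-fold between Tabby P1 and Tabby P5, on the scale used for dim members below. In Cy3 level the Tabby P5 minus Tabby P1 difference was -0.63 ± 0.50 (SE, limma on Cy3, adjusted p = 0.458). A missed threshold does not show that these members kept the same level.

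Dim members limited the list in the same way. A Cy3 signal well above background on all 20 arrays was found for 101 members, and 0 were saturated. At P5, 14 members had 0 of 2 Tabby arrays above background and 21 had 0 of 2 WT arrays. For such members the mean of the brighter group was set against, on each array of the dimmer group, the higher of the probe's own signal and the lowest signal well above background. That lowest signal was the higher on at least 1 array for 4 of the 14 members, and for the others the fold is that of the measured means. By this measure the 14 members were 1.04- to 2.01-fold higher at Tabby P1 than at Tabby P5, with a median of 1.17-fold. For 6 of them only 1 of the 2 Tabby P1 arrays was well above background. The folds are on another scale than the Cy3 levels and cannot be set against them. The highest, 2.01, came from log2 means of 6.25 at Tabby P5 and 7.26 at Tabby P1. It belonged to Z00029978-1, which also had the largest measured difference in Cy3 level, -3.70. Footpad levels were -3.30 and -4.72 on the Tabby P5 arrays, against -1.51 and 0.90 on the Tabby P1 arrays. Its Tabby P1 arrays were themselves more than 2-fold apart, and so was the reference: Cy5 was -3.18 and -3.56 on the Tabby P5 arrays, against -3.44 and 0.13 on the Tabby P1 arrays, with the high Cy5 value on the array that was high in Cy3. This member was named after its values had been seen.

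The members had no common level before birth: at E17.5 the Cy3 level was nearer to that at P1 than to that at P5 in 67 members in Tabby and in 79 in WT. These counts are given without the share of the eligible probes. The WT count is a description only, since the WT P1 and P5 values had chosen the members. On the log2 ratio, Tabby P1 minus Tabby E17.5 had 81 members called higher (54%), against 30.1% of all probes, and 14 called lower (9.33%), against 23.7%. In the Cy3 channel by itself, 74 were called higher, against 16.7% of all probes, and 14 lower, against 25.6%. WT P3 minus WT E17.5 had 50 members called lower (33.3%), against 26% of all probes, and 23 called higher (15.3%), against 30.2%. In Cy3 alone these were 72 lower and 8 higher, against 21.7% and 15.3% of all probes. In Tabby P3 minus Tabby E17.5, 38 members were called lower and 24 higher on the log2 ratio, against 22.5% and 29.6% of all probes. In Cy3 alone 57 were lower and 10 higher in that comparison, against 23% and 15.5%. Tabby P5 minus Tabby E17.5 had 35 lower and 30 higher, against 24.6% and 32.4%, so that in this comparison the share called lower was close to that of all probes. In Cy3 alone 56 were lower and 25 higher in Tabby P5 minus Tabby E17.5, against 24.8% and 18.9%. The E17.5 comparisons share arrays with each other and with those above.

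The comparisons with E17.5 also carry a change of the reference channel. The mean Cy5 levels of both E17.5 groups correlated with those of the other 8 groups at r = 0.964 to 0.965 across probes, and those of the other 8 groups among themselves at r = 0.991 to 0.997. The labels describe the reference in the same words on all 20 arrays. For Z00022567-1, Cy5 was -1.92 and -1.59 on the Tabby E17.5 arrays, against -1.10 and -1.54 on the WT E17.5 arrays, and lay between 0.47 and 1.12 on every array of the later stages. The replicates of Tabby E17.5 were also the least alike: their log2 ratios correlated at r = 0.959, against 0.974 to 0.996 in the other groups, and their differences had an SD of 0.55 over the members.

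Z00002191-1 had the largest fall of the log2 ratio among the members in WT P3 minus WT E17.5, though not in Cy3, where Z00026040-1 had a larger difference, -3.21. In Cy3 it stood at 2.89 and 2.80 on the WT P3 arrays, against 4.31 and 4.26 on the WT E17.5 arrays. Its Cy5 level was 3.63 and 3.64 on the WT P3 arrays, against 1.73 and 1.86 on the WT E17.5 arrays. Both channels thus moved, in opposite directions, and the difference in log2 ratio, -2.95 ± 0.18 (SE, limma, adjusted p = 1.37e-08), held both. Z00023250-1, which carries ATTAAA, had 5.56 and 5.52 on the WT P3 arrays, against 8.02 and 7.85 on the WT E17.5 arrays. Its Cy5 level lay between 4.92 and 5.20 on these 4 arrays, and its log2 ratio differed by -2.20 ± 0.12 (SE, limma, adjusted p = 7.62e-09). On the Tabby arrays Z00023250-1 was lower at each stage up to P5, with 7.77 and 7.84 (E17.5), 6.29 and 5.91 (P1), 5.34 and 4.84 (P3) and 4.75 and 4.64 (P5), and stood at 6.97 and 6.72 in the adult. For Z00055553-1 the Cy3 level was 2.13 and 2.12 on the WT P3 arrays, against 3.84 and 3.83 on the WT E17.5 arrays, with a difference in log2 ratio of -2.19 ± 0.25 (SE, limma, adjusted p = 5.36e-06).

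Other members were called higher on the log2 ratio at WT P3 than at WT E17.5. Z00051684-1 had 3.35 and 3.77 in Cy3 on the WT P3 arrays, against 2.15 and 2.30 on the WT E17.5 arrays. Its difference in log2 ratio, 2.33 ± 0.16 (SE, limma, adjusted p = 4.74e-08), exceeded that in Cy3, and the reference was lower, at 0.95 and 1.00 on the WT P3 arrays, against 2.24 and 2.41 on the WT E17.5 arrays. In Tabby it had 4.24 and 3.74 at P5, against 4.92 and 4.96 at P1, and 6.99 and 6.72 in the adult, so its dip was small beside its rise over all 5 stages. Z00052836-1 had 2.86 and 2.67 in Cy3 on the WT P3 arrays, against 1.80 and 0.60 on the WT E17.5 arrays, and a difference in log2 ratio of 1.82 ± 0.25 (SE, limma, adjusted p = 2.52e-05). After birth it was low in WT at P5 only, at 1.66 and 1.28, while the Tabby P5 arrays held 2.54 and 2.50. Its log2 ratio in Tabby P5 minus Tabby P3 differed by -0.28 ± 0.25 (SE, limma, adjusted p = 0.779). The WT P5 arrays had chosen this member for a low value, so its genotype difference at P5 is a description only. Z00015955-1 and Z00075195-1 were also called higher at WT P3 than at WT E17.5, by 1.25 ± 0.28 and 1.12 ± 0.17 in log2 ratio (SE, limma, adjusted p = 0.0016 and 7.54e-05). In Cy3 Z00075195-1 hardly differed, at 1.77 and 1.69 on the WT P3 arrays, against 1.91 and 1.57 on the WT E17.5 arrays, and these arrays overlapped.

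Tabby and WT could be compared on the stages that the rule did not read. At P3, 0 members were called on the log2 ratio (limma), against 0.221% of all probes called lower and 0.0156% higher. An unadjusted p under 0.05 was found for 9 of the 150 members and for 3020 of all 32121 probes. The differences of Tabby minus WT ran from -0.59 for Z00022567-1 (adjusted p = 0.341) to 0.70 for Z00034989-1 (adjusted p = 0.564), with a median of 0.02. In the Cy3 channel by itself 3 members were called, 1 lower against 0.557% of all probes and 2 higher against 0.277%. Z00022567-1 was lower in Tabby, with a Cy3 difference of -0.98 ± 0.18 (SE, limma on Cy3, adjusted p = 0.0304), with values within 0.1 of the array median on both Tabby P3 arrays, against 0.86 and 1.07 on the WT P3 arrays. Z00034989-1 was higher, with 2.72 and 3.30 on the Tabby P3 arrays, against 2.11 and 2.13 on the WT P3 arrays (0.89 ± 0.17, SE, limma on Cy3, adjusted p = 0.0376). Z00033907-1, named because it was called in Cy3, had -0.75 and -0.69 on the Tabby P3 arrays, against -2.16 and -1.96 on the WT P3 arrays (1.34 ± 0.21, SE, limma on Cy3, adjusted p = 0.00992). Its reference moved with it, at -0.25 and -0.37 on the Tabby P3 arrays, against -1.71 and -1.50 on the WT P3 arrays, and its log2 ratio differed by -0.07.

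At E17.5, 19 of the 150 members and 3685 of all 32121 probes had an unadjusted p under 0.05 (limma). After adjustment 0 members were called between Tabby and WT on the log2 ratio, against 0.0125% of all probes called lower. This count rested on 1 array: without Tabby E17.5 replicate 1, which leaves a single Tabby array assumed to vary like the other groups, 36 members were called lower (24%), against 15.9% of all probes in that fit, and 15 higher, against 9.62%. The array then left, replicate 2, was the one further from WT in the log2 ratio of Z00022567-1. This ratio was 1.49 on Tabby E17.5 replicate 1 and 0.65 on replicate 2, against 1.72 and 1.96 on the WT E17.5 arrays. In Cy3 level replicate 2 was the nearer, at 1.62, beside 1.30 on replicate 1 and 1.71 and 1.96 on the WT E17.5 arrays. For the interaction of genotype with stage, P3 against E17.5, 13 of the 150 members had an unadjusted p under 0.05 (limma). So had 2863 of all 32121 probes. After adjustment the interaction called 0 members, against 0.0311% of all probes called lower. Without Tabby E17.5 replicate 1 it called 10 lower (6.67%), against 7.39% of all probes, and 27 higher, against 12.7%. At P5 the Cy3 level was higher in Tabby than in WT for 129 members and lower for 21, and at P1 it was higher for 47 and lower for 103. The WT arrays of both stages had chosen the members for a low P5 and a high P1, so these counts are given without a test.

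The reference channel served as a check, since the same reference was meant to lie on every array. In Tabby P5 minus Tabby P1 the Cy5 level of the members had a median difference of -0.10, and 9 members were called lower and 0 higher (limma on Cy5), against 0.156% of all probes called lower and 0.299% higher. Fewer members were called lower in Cy5 without Tabby P5 replicate 1. That fit left 1 Tabby P5 array, and the share of all probes it called is not given. The Cy5 fall was at least 0.5 of the Cy3 fall in 22 members. In 113 members it was under 0.25 of the Cy3 fall or absent, and these include the 48 whose Cy5 level was higher at Tabby P5.

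The brightest member, Z00025832-1, was among the 9. On the footpad side it had 8.49 and 8.61 on the Tabby P5 arrays, against 11.82 and 11.16 on the Tabby P1 arrays. Its Cy5 level was 3.31 and 3.67 on the Tabby P5 arrays, against 5.88 and 5.63 on the Tabby P1 arrays. Footpad and reference thus went down together, by -2.94 ± 0.27 and -2.27 ± 0.18 (SE, limma on each channel, adjusted p = 3.97e-05 and 0.000196), and the log2 ratio differed by only -0.51 ± 0.19 (adjusted p = 0.0879). The Cy5 level followed the Cy3 level over the other stages too: 3.17 and 2.98 at P3 and 6.50 and 6.13 in the Tabby adult. Z00034989-1 was another. Its Cy3 level was 4.00 and 3.90 on the Tabby P5 arrays, against 5.78 and 5.68 on the Tabby P1 arrays, and its Cy5 level was -1.23 and -0.94 at Tabby P5, against 0.40 and 0.54 at Tabby P1. Its log2 ratio differed by -0.88 ± 0.34 (SE, limma, adjusted p = 0.114). Of the 9 members, only Z00026040-1 was also called lower on the log2 ratio, by -1.27 ± 0.28 (SE, limma, adjusted p = 0.00934). The other 6 were Z00026345-1, Z00075223-1, Z00054289-1, Z00025605-1, Z00077399-1 and Z00050875-1, with Cy5 differences of -1.12, -1.46, -1.14, -1.16, -1.22 and -1.31. All 9 were named because they were called in Cy5. The part of the array in their fall was not tested.

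The overlapping probes gave a measure of agreement. In the group of 3, the Cy3 difference of Tabby P5 minus Tabby P1 was -1.53 ± 0.33 for Z00022747-1, -1.47 ± 0.32 for Z00076845-1 and -1.48 ± 0.29 for Z00074548-1 (SE, limma on Cy3, adjusted p = 0.00929, 0.0103 and 0.00559). Their log2 ratios differed by -1.08, -0.95 and -1.01, all called. The 3 probes thus gave close values, and they count as 1 target. They were read on the same arrays, so these errors do not measure how well the probes agree. In the pair, the Cy3 difference was -1.40 ± 0.29 for Z00072942-1 and -0.81 ± 0.42 for Z00073760-1. The probes parted on 1 array: on Tabby P5 replicate 2, Z00072942-1 had -1.74 and Z00073760-1 had -0.35, while on Tabby P5 replicate 1 they had -1.85 and -1.83. The Cy5 level of Z00073760-1 was high on the same array, at 0.78, and the log2 ratios of the pair differed by -0.53 and -0.50, both called (limma, adjusted p = 0.0364 and 0.0425). Both were higher before birth than at any later stage, with 1.53 and 1.49 for Z00072942-1 on the Tabby E17.5 arrays. Outside the list, Z00077299-1 shared 38 bases with the member Z00030898-1 but was not well above background on any of the 4 arrays that the rule asked for.

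At the end of the list, Z00012335-1 fell in Tabby with a difference in log2 ratio of -1.11 ± 0.27 (SE, limma, adjusted p = 0.0166), at 1.33 and 1.36 in Cy3 on the Tabby P5 arrays, against 2.78 and 2.51 on the Tabby P1 arrays. Z00033881-1 did not pass the threshold (-0.06 ± 0.16, SE, limma, adjusted p = 0.875), with -1.72 and -1.42 on the Tabby P5 arrays, against -1.34 and 0.29 on the Tabby P1 arrays. Its Cy3 and Cy5 levels moved together, by -1.04 and -1.07. Z00015955-1 did not pass the threshold either (-0.30 ± 0.28, SE, limma, adjusted p = 0.552), with 1.79 and 1.66 at Tabby P5, against 2.05 and 1.97 at Tabby P1. Its adult level was 3.62 and 4.70 in Tabby, against 4.45 and 4.72 in WT. The last ranks thus held members with and without a measurable fall in Tabby.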

How the data were processed

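The members and the tests were chosen with earlier results of these data known. Agilent Feature Extraction 9.5.1.1 read the spots, per the file headers, and the deposited files hold mean, background and processed signals, each an intensity, for both dyes. The deposited value table is on the log10 scale. It followed footpad over reference plus a constant to within an SD of 0.001 over arrays in 64.4% of its 25030 probes; the centring of the others is unknown. Its column medians were 2.53 to 2.59, and it held 94 members.

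Levels are log2 processed signals minus the array median, with spots of a probe averaged. Ratios came from mean signals corrected with normexp (offset 50, which draws the ratios of dim spots toward 0) and loess within each array, with outlier spots missing (limma 3.58.1, R 4.3.3). Probes well above background in Cy3 on at least 2 arrays were tested: 32121, including all 150 members. The model had 10 group coefficients over 20 arrays, 10 residual and 3.52 prior degrees of freedom. Tests were two-sided. Replicates are labelled biological, and nothing says whether animals were pooled. Between 64.7% and 72.1% of probes were well above background per array, and precision is limited by the 2 arrays a group. Recovery of known changes was tested on simulated data, but the outcome is not given here and no call rests on it.

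Named probes were the 8 with the largest rule value, the 6 with the largest falls and the 3 highest in Tabby P5 minus Tabby P1, up to 4 per direction for Tabby minus WT at P3 and for WT P3 minus WT E17.5, the members that share at least 30 bases, and 3 on each side of the list's end. Other probes are said to have been named after their values were seen. The largest falls and the members per direction were taken only among members called, with arrays that did not overlap in log2 ratio. Marker lists could not be used without gene names. Replicate numbers did not pair arrays: deviations from the group means correlated at r = -0.242 to 0.224 over 45 pairs, 9 of them over 0.1.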

Additional observations from a re-analysis of the deposited data

Results flagged for a closer look

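In 2 of the named members, the log2 ratio on both P5 arrays of Tabby lay above that on both P3 arrays, while in WT both P5 arrays lay below both P3 arrays, the arrays of the 2 stages being different samples. In WT the nearest arrays of Z00022567-1 were almost level. For Z00022567-1 the log2 ratio of P5 minus P3 was 0.10 in Tabby and -0.14 in WT. For Z00015955-1 it was 0.36 in Tabby and -0.20 in WT. The difference between the genotypes was not tested, because the WT P5 arrays had chosen the members.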

How the results depend on the processing

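In the direction with more calls, counts of members called on the log2 ratio kept within 1.5 times the reported count, or at 0, under the alternatives planned, with the exceptions given here; the cause was not tested except where fewer probes or arrays entered. The direction reversed for 0 named members. An alternative can also change how many of all probes are called. The counts in this and the next paragraph are given without that share. They show only how far a count moved. With array weights, 122 members were called lower in Tabby P5 minus Tabby P1, 122 in Tabby P3 minus Tabby P1, 16 higher in Tabby P5 minus Tabby P3 and 3 lower in Tabby minus WT at P3. With only the arrays of the comparison in the fit, these counts were 122, 120, 10 and 1, and Tabby P3 minus Tabby E17.5 had 24 lower. Without background subtraction, 112 were lower in Tabby P3 minus Tabby P1, 5 higher in Tabby P5 minus Tabby P3 and 1 lower in Tabby minus WT at P3. With Cy3 alone, 56 were lower in Tabby P5 minus Tabby E17.5, 7 higher in Tabby P5 minus Tabby P3 and 1 lower in Tabby minus WT at P3. In the direction with fewer calls, Cy3 alone moved the members higher in WT P3 minus WT E17.5 to 8, beside 23 reported, and in Tabby P3 minus Tabby E17.5 to 10, beside 24; other alternatives gave up to 38 for the first, as few as 10 for the second and up to 27 lower in Tabby P1 minus Tabby E17.5, beside 14. Where 0 were reported in that direction, they gave up to 4 lower in Tabby P5 minus Tabby P3 and up to 6 higher in Tabby minus WT at P3. The deposited value table, which holds 94 members, gave 29 lower for WT P3 minus WT E17.5, 22 lower for Tabby P5 minus Tabby E17.5 and 5 higher for Tabby P5 minus Tabby P3; scale normalization gave 0 for the last. Without the condition on background, 352 probes met the rule in place of 219, and 90 members were among its first 150; on the log2 ratio 184 probes met it, 99 of them members.

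Leaving out 1 array at a time gave 40 to 96 members lower in Tabby P5 minus Tabby P1, 51 to 102 in Tabby P3 minus Tabby P1, 40 to 56 in WT P3 minus WT E17.5, 33 to 45 in Tabby P3 minus Tabby E17.5 and 31 to 42 in Tabby P5 minus Tabby E17.5. Those higher in Tabby P1 minus Tabby E17.5 were 69 to 87, and in Tabby P5 minus Tabby P3 0 to 3. Tabby minus WT gave 0 to 1 at P3 and 0 to 36 lower and 0 to 15 higher at E17.5, the interaction 0 to 10 lower and 0 to 27 higher, and the reference channel 3 to 9. With the replicate number as a block, 73 members were called in Tabby P5 minus Tabby P1, 75 in Tabby P3 minus Tabby P1, 1 in Tabby P5 minus Tabby P3 and 7 in the reference channel, and 1 lower in Tabby P5 minus Tabby P3, beside 0; no other count moved by over 1.5 times. Among the repeats for the named members in Tabby P5 minus Tabby P1, 52 lost and 16 gained a call.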
